A study of Mus musculus with 16 samples.

Results

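Kinesins are motor proteins that use ATP to move along microtubules, or to take microtubules apart at their ends. Some members build the mitotic spindle, move chromosomes and separate daughter cells, and their transcripts are made mainly in dividing cells. Others carry vesicles, mitochondria and endosomes and are needed in resting cells, including microglia, the resident macrophages of the retina. The genes described here are those of the deposited table whose symbol starts with Kif and a number, leaving out pseudogenes named -ps, which gave 40 of 54532 genes. By textbook role 12 were classed as mitotic motors, 13 as transport motors and 13 as other motors (microtubule end regulators and motors of cilia, centrioles or signalling), and 2 were not motors (Kif1bp, a kinesin-binding protein, and Kif16bos, an antisense RNA).

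RNA was sequenced from retinal microglia of mouse pups at postnatal day 17, in 8 libraries from oxygen-induced retinopathy (OIR), a model in which newborn mice breathe high oxygen and the retina then becomes hypoxic in room air, and 8 libraries from retinas without it (nonOIR). All mice of both groups were Cx3cr1CreERT2:Rosa26-tdTomato reporters and had received tamoxifen (5 µl at 21 mg per ml, under the skin) at postnatal day 1, so the red label depended on Cx3cr1 activity and on recombination at that age. Cells were sorted as positive for CD11b and tdTomato, low for CD45 and negative for Ly6C and Ly6G. The labels do not say whether a library holds 1 animal or several, or whether libraries come from separate animals, so p-values measure the spread between these libraries, which may be partly technical.

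Counts per library summed to between 13591651 and 30001463. Levels are given as CPM, the count over the library total times 1000000. A code in the labels placed 5 libraries of each group in lane 1 and 3 in lane 2. The description labels also number OIR replicates 1 to 4 from S1 to S4, and the numbers start again at S1 with OIR replicate 5. The labels do not say what the restart marks. If it marks a batch, that batch holds OIR libraries only and cannot be told apart from the group. Among microglial markers, Csf1r ran from 7268 to 15690 CPM in OIR and from 8008 to 17310 in nonOIR. P2ry12 and Tmem119 were lower in OIR, at 4811 to 8853 against 9271 to 12413 CPM and at 2015 to 3366 against 3798 to 4957 CPM (edgeR adjusted p = 0.000617 and 0.00055). Csf1r did not pass (log2 fold change -0.19, edgeR adjusted p = 0.668), so these 2 do not stand for all microglial markers. Of all genes tested, 4.56% were called lower. The other cell type lists, with the OIR range before the nonOIR range, summed to 13.0 to 33.3 against 28.0 to 56.7 CPM for neurons, 39.7 to 434 against 61.3 to 524 for rods and cones, 12.2 to 37.9 against 21.5 to 42.0 for endothelium and pericytes, 4.42 to 17.7 against 5.09 to 10.4 for monocytes and granulocytes, and 1.85 to 315 against 0 to 27.7 for erythrocytes. Ly6c2 and Ly6g had 0 counts in all 16 libraries. The list of Müller glia and astrocytes summed to 2306 to 19386 against 1281 to 10439 CPM, most of it Apoe, which microglia also express. The part of these other cells in the results below was not tested.

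Of the 38 motor genes, 29 reached 1 CPM in at least 1 library, among them 10 mitotic, 12 transport and 7 other motors. The remaining 9 motors, Kif2b, Kif14, Kif17, Kif6, Kif12, Kif26a, Kif26b, Kif27 and Kif28, stayed under 1 CPM in all 16 libraries and are stated as not expressed at this depth, and so was Kif16bos. Kif2b, a depolymerase related to Kif2c, had 0 counts in every library. Kif14, a motor of cytokinesis, was the only mitotic motor with some counts among them, with 27 counts in OIR and 6 in nonOIR, and it did not exceed 0.373 CPM.

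Most mitotic motors rose. In edgeR's quasi-likelihood fit, 7 of the 9 tested passed upward and 0 downward at a threshold of 0.05 on the adjusted p, while 6.39% of the 12496 genes tested rose and 4.56% fell. The rises ran from 2.57-fold for Kif2c to 11.1-fold for Kif20a. The median log2 fold change of the 9 tested members was 2.67, against -0.03 over all genes tested. A higher share of dividing cells and more RNA per cell cannot be told apart in bulk libraries.

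Of the motors of the central spindle and of cytokinesis, Kif20a and Kif23 rose and Kif20b did not pass. Kif20a, which brings Aurora B to the central spindle, ran from 0 to 3.91 CPM in nonOIR (median 0.576) and from 3.07 to 20.1 in OIR (median 14.4). In this gene 7 of 8 OIR libraries were above every nonOIR library, the exception being OIR replicate 1. Its log2 fold change was 3.48 ± 0.69 (SE, edgeR adjusted p = 0.00334), or 4.12 without nonOIR replicate 3, the highest of its group. Exons of Kif20a share 1271 bases with Cdc23 on the opposite strand (reads of the kit used carry no strand).

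Kif23, which forms the centralspindlin complex with Racgap1, ran from 0 to 3.76 CPM in nonOIR (median 1.23) and from 4.51 to 18.1 in OIR (median 9.18). The groups did not overlap, as in 1.6% of all genes tested for this direction. Among the motors this held for Kif23 and Kif18b alone, and for 0 in the opposite direction (0.472% of all genes). The log2 fold change of Kif23 was 2.72 ± 0.67 (SE, edgeR adjusted p = 0.0138). Kif20b, another motor of cytokinesis, was at 1.80 to 5.76 CPM in nonOIR (median 2.81) and 1.89 to 8.17 in OIR (median 5.64). Its groups overlapped and it did not pass the test (log2 fold change 0.64, 95% confidence interval -0.06 to 1.33, edgeR adjusted p = 0.243).

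Motors that shape the spindle rose as well. Kif11, which slides microtubules apart to set up the 2 spindle poles, ran from 0.479 to 4.54 CPM in nonOIR (median 2.05) and from 0 to 28.5 in OIR (median 16.6). OIR replicate 1 had 0 counts of Kif11, which allows up to 3 counts in that library for counting error only, and OIR replicate 2 had 3.03 CPM, while the other 6 OIR libraries lay above every nonOIR library. The log2 fold change of Kif11 was 2.67 ± 0.71 (SE, edgeR adjusted p = 0.0207), and neither limma-voom (log2 fold change 1.77, adjusted p = 0.538) nor edgeR without the filter on low counts (adjusted p = 0.0774) called it. Kif15, a motor that helps to keep the spindle bipolar, ran from 0.465 to 4.27 CPM in nonOIR (median 2.07) and from 2.69 to 10.4 in OIR (median 6.21). Its log2 fold change was 1.48 ± 0.43 (SE, edgeR adjusted p = 0.033). In 5 of the 16 fits that dropped 1 library (OIR replicate 6 or 8, nonOIR replicate 2, 3 or 8), Kif15 did not pass, with edgeR adjusted p between 0.0512 and 0.0699.

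Of the motors that act at microtubule ends, Kif18b had the most separate groups. Kif18b, which shortens astral microtubules, ran from 0 to 1.62 CPM in nonOIR (median 0.815) and from 2.02 to 17.1 in OIR (median 7.34), with no overlap between the groups. Its log2 fold change was 3.38 ± 0.72 (SE, edgeR adjusted p = 0.00546). Kif2c, a depolymerase at centromeres, started from a higher level than the other mitotic motors, at 1.01 to 10.8 CPM in nonOIR (median 6.49) against 3.26 to 23.9 in OIR (median 16.1). Every OIR library but replicate 1 lay above all nonOIR libraries, and the fitted log2 change of Kif2c was 1.36 ± 0.38 (SE, edgeR adjusted p = 0.0259). Without OIR replicate 6 it did not pass (edgeR adjusted p = 0.0502), nor with limma-voom (adjusted p = 0.0559). Kif18a, which damps chromosome movement at the spindle equator, was at 0 to 2.02 CPM in nonOIR (median 1.70) and 0.0841 to 6.75 in OIR (median 3.43). It did not pass (log2 fold change 1.37, 95% confidence interval -0.12 to 2.86, edgeR adjusted p = 0.241).

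Both chromokinesins, motors that sit on chromosome arms, were low in nonOIR. Kif22 ran from 0 to 4.96 CPM in nonOIR (median 2.21) and from 2.14 to 35.6 in OIR (median 17.8), and 7 of 8 OIR libraries lay above all nonOIR libraries. Its log2 fold change was 2.92 ± 0.69 (SE, edgeR adjusted p = 0.0106), and its pseudogene Kif22-ps had 0 counts. Kif4, which also binds the central spindle protein Prc1, had 16 counts over all nonOIR libraries, at 0 to 0.357 CPM, and 1001 over the OIR libraries, at 0.0389 to 12.4 CPM (median 4.91). Kif4 did not pass the filter, which asks for a minimum in 8 libraries, and OIR replicate 1 held 1 count of it. With no filter, which put 2.13% of 29793 genes higher in OIR, its log2 fold change was 5.64 ± 0.86 (SE, edgeR adjusted p = 0.000317), a value that depends on the small nonOIR counts. Exons of Kif4 share 832 bases with Pdzd11 on the opposite strand.

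**Figure D1:**
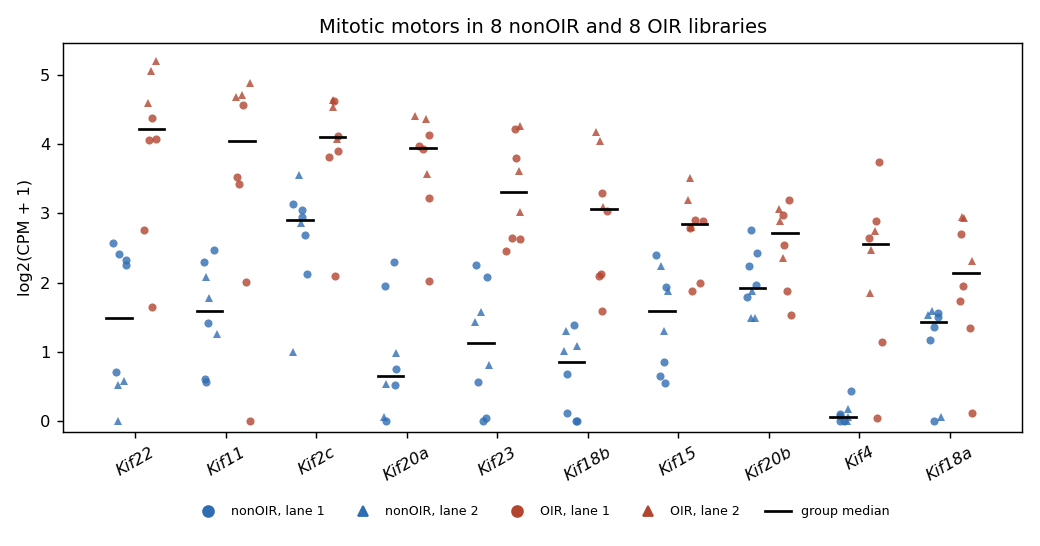
Level of the 10 mitotic motors that reached 1 CPM, as log2(CPM + 1) on the vertical axis, in 8 nonOIR (blue) and 8 OIR (red) libraries; circles are lane 1, triangles lane 2 and bars the group medians. The groups do not overlap in Kif18b and Kif23, and OIR replicate 1 is the red point at 0 in Kif11.

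The 8 OIR libraries differed widely in these motors. Of the 10 mitotic motors with 1 CPM or more, 6 had their lowest OIR value in replicate 1 and 7 their highest in replicate 6. The summed level of mitotic motors was 24.3 CPM in OIR replicate 1 and 45.6 in OIR replicate 2, and between 85.2 and 170 in the other 6. The nonOIR libraries ran from 12.1 to 31.4 CPM (median 20.8), so OIR replicate 1 lay within the nonOIR range. Markers of cycling cells were ordered alike at the ends. Of their 10 genes 8 rose and 0 fell, where 6.39% and 4.56% of all genes did. They summed to 152 and 178 CPM in OIR replicates 1 and 2, 651 in OIR replicate 6 and 89.9 to 126 in nonOIR. Among them Top2a ran from 0.337 to 9.98 CPM in nonOIR and was at 10.3 or more in OIR (median 57.4; log2 change 3.24, edgeR adjusted p = 0.000467), while Mki67, at 0 to 8.02 and 1.83 to 23.2 CPM, did not pass (log2 fold change 1.82, edgeR adjusted p = 0.168). The summed transport motors were at 194 CPM in OIR replicate 1, close to the OIR median of 193. OIR replicate 1 had the fewest genes with a count of all 16 libraries, 16019 at a total of 25727439 counts. The other libraries had 16918 to 18619 such genes, the most being in OIR replicate 2, whose mitotic sum was also low for OIR. Whether the lower number of genes found in OIR replicate 1 bears on its mitotic sum was not tested.

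**Figure D2:**
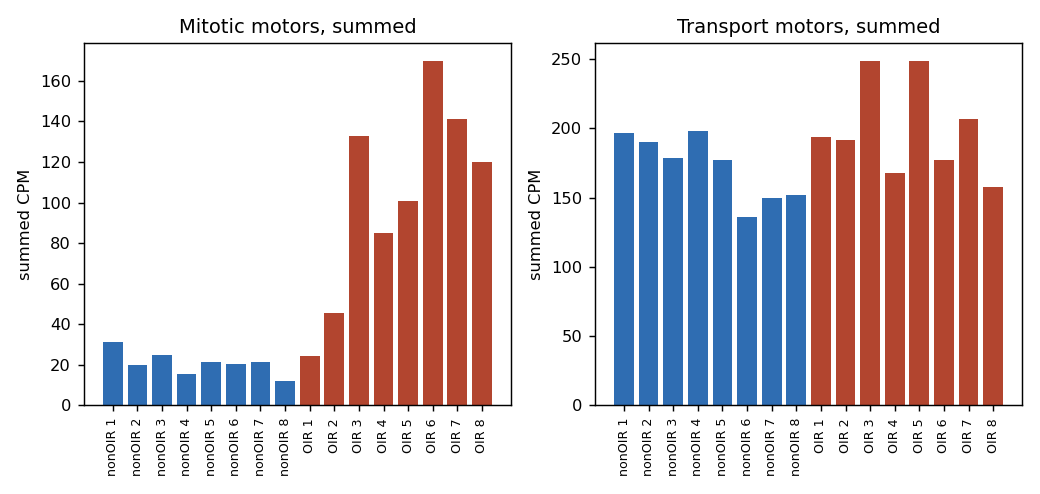
Summed CPM of the mitotic motors (left) and transport motors (right) in each of the 16 libraries, nonOIR in blue and OIR in red. The mitotic sum reaches 170 CPM in OIR replicate 6 and is 24.3 in OIR replicate 1, within the nonOIR range of 12.1 to 31.4, while transport sums lie between 136 and 249 CPM in all libraries.

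The number of mitotic motors called depended on which lane was tested. Within lane 2 (3 against 3 libraries) 7 of 9 tested members rose, where 9.75% of all genes did, now with Kif20b and without Kif2c. Within lane 1 (5 against 5) 0 passed with edgeR, where 2.25% of all genes rose, although all 9 fold changes were positive and 6 had an unadjusted p under 0.05. Leaving OIR replicate 1 out of lane 1, a fit chosen after the values were seen, gave 3 rises (2.51% of all genes). Leaving it out of the full set gave 7 of 9 (7.22% of all genes), as did leaving out OIR replicates 1 to 4 (8.63%), lane as a covariate (9.68%) and DESeq2 (8.7%), while limma-voom gave 5 (5.71%).

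A test of whether the group effect differed between the lanes, added after the values were seen, singled out Kif22. Its level was 0.643 to 4.96 CPM in lane 1 and 0 to 0.501 in lane 2 of nonOIR, and 2.14 to 19.7 and 23.1 to 35.6 in OIR. The group effect was larger in lane 2 by 4.78 on the log2 scale (edgeR interaction adjusted p = 0.0449), where 0.496% of all genes passed. The log2 fold change of Kif22 was 1.70 in lane 1 and 6.52 in lane 2, and the latter rests on 10, 12 and 0 counts in the 3 nonOIR libraries. No other tested kinesin passed this test.

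Upstream sequence of mitotic and transport motors is shown because a pair of promoter elements is known from genes of the G2 and M phases, the CHR element (TTTGAA) and the CCAAT box. The stretches are the 120 bases before the RefSeq transcript start (build GRCm38.p6, which is mm10), read 5′ to 3′ on the gene's strand, of tested motors that hold a searched motif there and whose stretch lies outside the GENCODE gene. Capitals mark a match on either strand. A CCAAT box on the opposite strand appears as ATTGG, and the CHR element on that strand appears as TTCAAA. The capitals GCGCCAAA in Kif18a mark the E2F motif TTTGGCGC, which also lies on the opposite strand. No matches overlap in these stretches. The first 4 are mitotic motors and the last 2 are transport motors.
Kif11, chr19:37376262-37376381, plus strand: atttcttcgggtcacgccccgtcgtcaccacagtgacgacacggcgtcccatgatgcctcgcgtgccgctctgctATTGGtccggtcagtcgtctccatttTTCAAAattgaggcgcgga
Kif18b, chr11:102925125-102925244, minus strand: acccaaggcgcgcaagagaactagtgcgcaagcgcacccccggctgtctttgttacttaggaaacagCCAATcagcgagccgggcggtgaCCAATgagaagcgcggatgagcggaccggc
Kif23, chr9:61946800-61946919, minus strand: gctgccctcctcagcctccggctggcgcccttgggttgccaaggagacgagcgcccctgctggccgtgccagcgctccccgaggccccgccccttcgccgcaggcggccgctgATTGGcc
Kif18a, chr2:109280618-109280737, plus strand: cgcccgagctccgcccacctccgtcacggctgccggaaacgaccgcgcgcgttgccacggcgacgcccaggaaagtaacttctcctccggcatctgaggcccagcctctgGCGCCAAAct
Kif3a, chr11:53567249-53567368, plus strand: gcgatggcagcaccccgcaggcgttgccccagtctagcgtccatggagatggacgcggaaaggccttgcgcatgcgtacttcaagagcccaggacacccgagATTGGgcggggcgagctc
Kif1b, chr4:149307734-149307853, minus strand: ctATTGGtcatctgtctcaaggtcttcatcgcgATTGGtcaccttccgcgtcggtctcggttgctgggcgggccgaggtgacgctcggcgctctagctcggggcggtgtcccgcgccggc

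In these stretches Kif11 holds a CCAAT match at -45 and a CHR match at -19, counted from the start, and Kif18b holds CCAAT matches at -53 and -30. Transport motors also hold CCAAT matches, at -18 in Kif3a and at -118 and -87 in Kif1b. Over the 250 bases before the start, TTTGAA was found in 5 of 11 mitotic motors with a RefSeq window (Kif2c, Kif11, Kif14, Kif15 and Kif22). It was found in 1 of 10 transport motors (Kif1a) and in 18.3% of 27025 genes. Kif20a had no RefSeq window. In the matching windows of Kif2c, Kif14 and Kif1a, the 120 bases before the RefSeq start lay wholly inside the GENCODE gene. CCAAT was found in 7 of 11 mitotic motors, 3 of 10 transport motors and 37.5% of genes. Of the mitotic windows with CCAAT, those of Kif14 and Kif4 lay inside the gene in the same way. The E2F motif TTTGGCGC was found in Kif15 and Kif18a, in 0 of 10 transport motors and in 0.485% of genes. TTTCGCGC and TTCGAA were found in none of the mitotic or transport windows and in 0.3% and 1.55% of genes. A match is a description of the letters and not a measured binding site, and Kif18a, Kif1b and Kif3a hold matches without having passed the test.

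No transport motor passed the test. Of 11 tested members 0 rose and 0 fell in edgeR (10.9% of all genes changed in either direction), 0 had an unadjusted p under 0.05 (25% of all genes did), and DESeq2 and limma-voom also called 0 (14.9% and 10.4% of all genes). At the adjusted threshold, 0 calls is a count that 11 genes could give at those shares. The log2 fold changes of the 11 ran from -0.92 (Kif5c) to 0.44 (Kif3b) with a median of 0.09. The intervals bound changes in the abundant members more tightly than in the rare ones.

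Kif5b, the heavy chain of conventional kinesin found in most cells, was the most abundant motor per length in both groups. It ran from 57.5 to 81.9 CPM in nonOIR (median 62.4) and from 61.8 to 97.7 in OIR (median 74.8), and 7 of 8 OIR libraries lay above the nonOIR median. Its fitted change was 1.13-fold (95% confidence interval 0.972 to 1.32, edgeR adjusted p = 0.306). Kif1b, a carrier of mitochondria and vesicle precursors, ran from 31.5 to 51.8 CPM in nonOIR (median 38.8) and from 33.1 to 73.0 in OIR (median 41.4). The groups overlapped, at 1.06-fold (0.843 to 1.34, edgeR adjusted p = 0.792).

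Kif3a and Kif3b pair with Kifap3 in the kinesin-2 motor, which serves cilia and organelle transport. Kif3a ran from 6.47 to 18.2 CPM in nonOIR (median 12.0) and from 10.3 to 23.2 in OIR (median 16.4), a 1.29-fold change (95% confidence interval 0.931 to 1.78, edgeR adjusted p = 0.333). Kif3b ran from 4.33 to 15.4 CPM (median 11.1) and from 10.7 to 22.5 (median 14.8), a 1.36-fold change (0.939 to 1.96, edgeR adjusted p = 0.298). For both, 7 of 8 OIR libraries lay above the nonOIR median, yet the ranges overlapped. Kifap3 itself was at a median of 24.3 CPM in nonOIR and 26.2 in OIR (log2 change 0.01, edgeR adjusted p = 0.985).

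The groups overlapped in the endosome carriers too. Kif13a, which moves recycling endosomes, ran from 6.78 to 21.5 CPM in nonOIR and from 5.93 to 23.9 in OIR, at 1.01-fold (95% confidence interval 0.624 to 1.63, edgeR adjusted p = 0.988). Kif16b, a carrier of early endosomes, ran from 3.57 to 15.1 and from 2.68 to 26.8 CPM, at 1.22-fold (0.747 to 2.00, edgeR adjusted p = 0.662). The intervals of both would hold a change of 1.5-fold upward. Kif13b was at a median of 12.7 CPM in nonOIR and 9.38 in OIR (log2 change -0.25, edgeR adjusted p = 0.682).

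The remaining transport motors were rare. Kif1c and Kif3c had nonOIR medians of 2.52 and 3.60 CPM and OIR medians of 1.91 and 3.60. The neuronal motors Kif1a, Kif5a and Kif5c did not exceed 2.93, 1.91 and 3.29 CPM in any library. Kif5c had medians of 1.69 CPM in nonOIR and 0.818 in OIR (log2 fold change -0.92, 95% confidence interval -2.45 to 0.62), and Kif5a was too low to be tested. Of the neuronal markers 2 of 9 tested members were called lower in OIR and 0 higher, against 4.56% of all genes called lower. Snap25 and Nefl were the 2, at log2 fold changes of -1.31 and -1.28. Of the rest, Map2, Tubb3, Stmn2 and Nefm had values of -2.27, -1.81, -1.14 and -1.02. Syt1, Elavl4 and Rbfox3 had -0.16, -0.05 and 0.51, and the median of the 9 was -1.14. Whether the neuronal motors came from microglia was not tested.

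**Figure D3:**
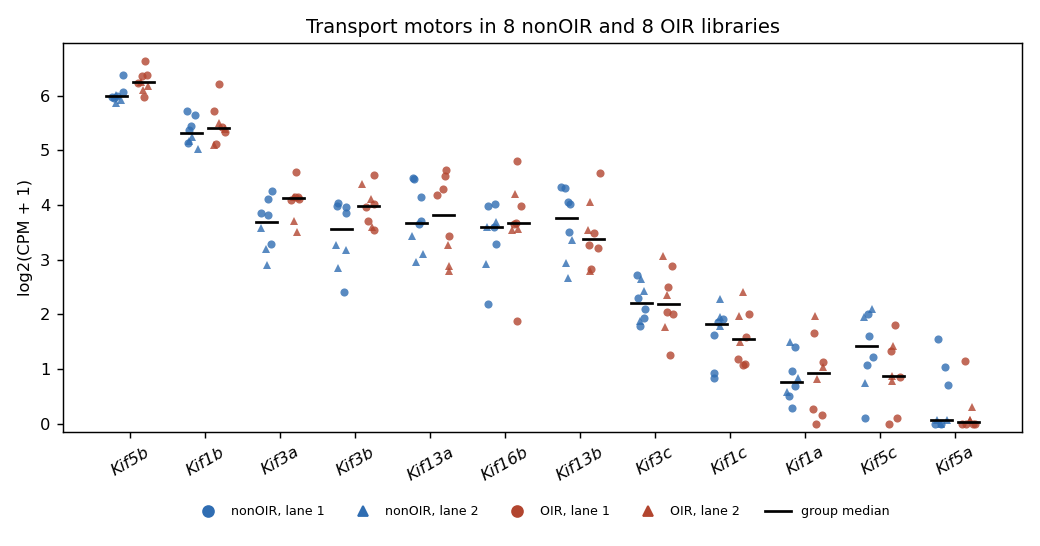
Level of the 12 transport motors that reached 1 CPM, as log2(CPM + 1) on the vertical axis, in 8 nonOIR (blue) and 8 OIR (red) libraries; circles are lane 1, triangles lane 2 and bars the group medians. The groups overlap in all 12, and Kif5b and Kif1b stand above the rest at medians of 62.4 and 38.8 CPM in nonOIR.

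Side by side, the 95% confidence intervals of the 7 called mitotic motors began at 1.49-fold (Kif2c) or higher. That is above the upper ends for Kif5b (1.32-fold) and Kif1b (1.34-fold). These 7 were picked by the test, so their intervals could not include no change. The mitotic motors not called, Kif18a (0.923 to 7.28-fold) and Kif20b (0.962 to 2.51-fold), had intervals that overlapped those of all 11 transport motors. The interval of Kif16b, which ended at 2.00-fold, overlapped those of Kif2c and Kif15, while the intervals of Kif18b (from 3.66-fold) and Kif20a (from 4.08-fold) lay above those of all 11 transport motors, the highest of which ended at 3.26-fold (Kif1a). The difference between the classes as such was not tested.

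**Figure D4:**
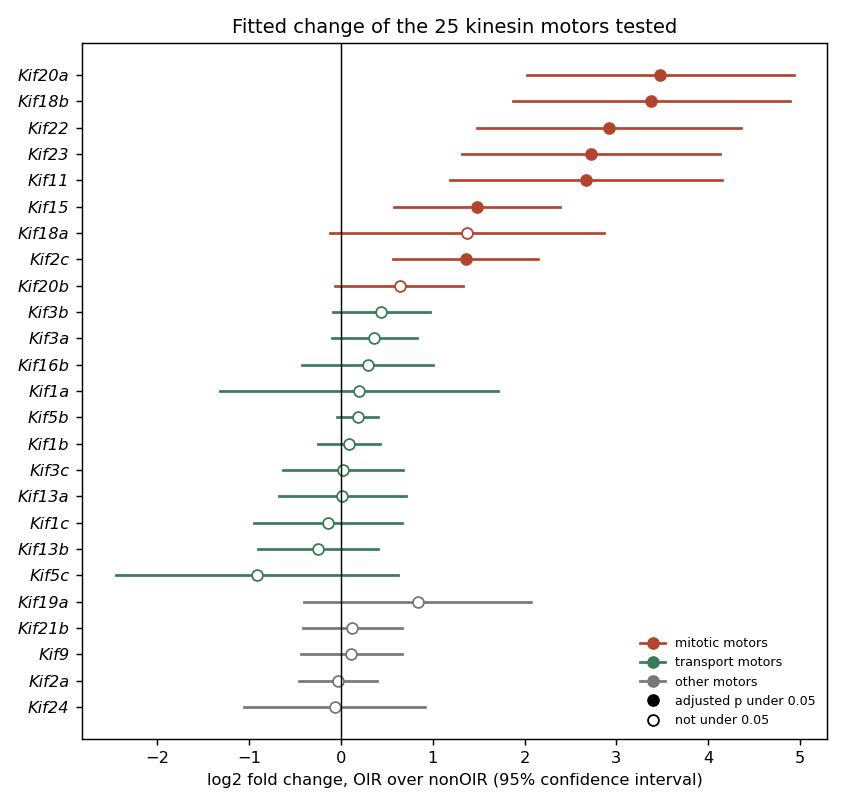
Log2 fold change of OIR over nonOIR with its 95% confidence interval for the 25 motors tested, by class; filled points have an edgeR adjusted p under 0.05. The 7 filled points are all mitotic motors. Every interval of the transport and other motors includes 0, as do those of the mitotic motors Kif18a and Kif20b.

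Among the other motors 0 of 5 tested members were called in either direction, and 0 had an unadjusted p under 0.05 (10.9% and 25% of all genes), counts that 5 genes could give at those shares. Kif21b, which limits microtubule growth, was the most abundant of them, at 14.6 to 36.9 CPM in nonOIR (median 20.1) and 13.2 to 41.6 in OIR (median 27.0). Kif2a, a depolymerase with roles in spindles and in neurons, ran from 5.39 to 11.4 and from 5.64 to 9.48 CPM (log2 fold change -0.03, 95% confidence interval -0.46 to 0.39), and shares 1229 exonic bases with Dimt1. Kif9, Kif19a and Kif24 had log2 fold changes of 0.11, 0.84 and -0.07. Kif7, a regulator of Hedgehog signalling, and Kif21a reached 1 CPM in 2 and 4 libraries and were too low to be tested. Kif1bp, which is not a motor and can hold some kinesins off microtubules, ran from 67.3 to 73.7 CPM in nonOIR (median 68.3) and from 54.1 to 79.2 in OIR (median 59.2). In 7 of 8 OIR libraries it lay below the nonOIR median, with a fitted log2 change of -0.25 ± 0.08 (SE, edgeR adjusted p = 0.0686), and DESeq2 called it lower (adjusted p = 0.0347).

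Compared per kilobase of exon, the order of the motors changed at the mitotic genes. In nonOIR Kif5b stood first at 8.06 ± 0.954 CPM per kilobase, followed by Kif3a at 3.32 ± 1.14, Kif1b at 2.28 ± 0.41 and Kif3b at 1.89 ± 0.773 (SD, n = 8). From Kif3a downward, neighbours differed by less than the larger of their SDs, except for the step from Kif13b at 0.964 ± 0.412 to Kif3c at 0.511 ± 0.161 (SD, n = 8). In OIR the step from Kif5b to Kif3a alone was larger than that. Among the 29 expressed motors Kif22 moved from rank 13 in nonOIR to rank 3 in OIR, at 0.477 ± 0.43 and 3.82 ± 2.37 CPM per kilobase (SD, n = 8). Kif20a moved from rank 17 to 5, Kif18b from 19 to 8 and Kif4 from 29 to 16, while Kif5b and Kif3a kept the first and second place. Mitotic motors made up 7.45% to 16.4% of the summed CPM per kilobase of all motors in nonOIR (median 13.3%) and 11.2% to 53.3% in OIR (median 38.8%).

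Partners of the mitotic motors rose with them. Of that list's 18 genes, all tested, 16 rose and 0 fell, against 6.39% of all genes that rose. The list is not of partners alone, since Cenpe and Kifc1 are themselves spindle kinesins whose symbols fall outside the rule. The bundling protein gene Prc1, which recruits Kif4, ran from 0.169 to 3.55 CPM in nonOIR and from 8.62 to 42.7 in OIR (log2 change 3.72, edgeR adjusted p = 0.000435). Birc5 and Cdca8, which belong with Aurora B to the complex that Kif20a carries, had log2 fold changes of 3.53 and 2.91, and Nusap1, a spindle microtubule binder, of 3.09 (edgeR adjusted p = 0.000299, 0.000202 and 0.000123). These 4 genes were picked for the lowest p in this same comparison, so separate groups in them are no further evidence. In each of them all 8 OIR libraries lay above all nonOIR libraries (1.6% of all genes tested, which were not picked). In Aurkb, Cenpf and Anln of the same list 6 of 8 OIR libraries lay above all nonOIR libraries. The 2 members that did not pass were Kifc1, a minus-end directed kinesin of the spindle, and Ect2 (edgeR adjusted p = 0.0993 and 0.0554). Kifc1 has a near-identical copy, Kifc5b, so its counts are uncertain.

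Of 21 tested partners of the transport motors 1 rose and 0 fell, a share near the 6.39% of all genes that rose. The gene was Klc4, a light chain of conventional kinesin, at 35.1 to 45.9 CPM in nonOIR (median 39.7) and 48.4 to 81.3 in OIR (median 60.8). Its groups did not overlap, as in 1.6% of all genes tested (log2 change 0.57, edgeR adjusted p = 0.0019). The other tested light chains, Klc1 and Klc2, had log2 fold changes of 0.12 and -0.14. Of 23 tested genes of cytoplasmic dynein and dynactin, the motor that runs in the opposite direction, 1 rose and 0 fell, again near the 6.39% of all genes. It was Dynll2, a light chain, at a median of 6.41 CPM in nonOIR and 9.43 in OIR (log2 change 0.72, edgeR adjusted p = 0.0254).

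The motors were also compared between the lanes, in a test added after the values were seen. With group in the fit, 3 of 25 tested motors were lower in lane 2, Kif13a, Kif21b and Kif3a, and 0 were higher. Of all genes 24.8% differed between lanes and 13.8% were lower in lane 2, so motors were not called more often than other genes. Kif13a had a mean of 16.6 ± 4.81 CPM in lane 1 (SD, n = 5) and 8.07 ± 1.59 in lane 2 (SD, n = 3) of nonOIR, and 18.4 ± 5.49 and 6.97 ± 1.41 in OIR. Its log2 difference was -1.29 (edgeR adjusted p = 0.000164). Kif21b and Kif3a followed at -0.96 and -0.64 (edgeR adjusted p = 0.000267 and 0.0137). None of the 9 tested mitotic motors passed this test, a count that 9 genes could give at those shares. The labels do not say what else differed between the lanes.

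**Figure D5:**
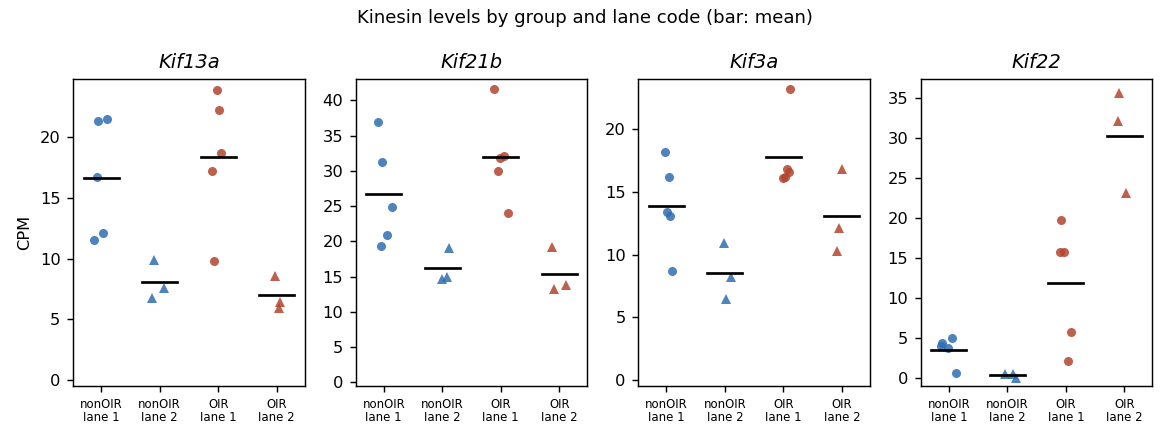
CPM of Kif13a, Kif21b, Kif3a and Kif22 by group and lane code, with 1 point per library (5 libraries of each group in lane 1, 3 in lane 2) and bars for the means. Kif13a and Kif21b are lower in lane 2 of both groups, and Kif22 is at most 0.501 CPM in lane 2 of nonOIR and at least 23.1 in lane 2 of OIR.

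In the authors' deposited table, 8 of the 10 mitotic motors with an adjusted p were under 0.05, as were 14.4% of the 13718 genes with one, among them Kif4 (log2 fold change 1.58, adjusted p = 4.06e-06). None of the 12 transport motors with an adjusted p in the authors' deposited table was, a count that 12 genes could give at 14.4%. The authors' deposited table gives smaller log2 values than the edgeR fit for the called mitotic motors, such as 1.23 for Kif20a against 3.48 in edgeR. DESeq2 run here on the deposited counts gave 3.46 for Kif20a. The reason for the smaller deposited values was not tested. On mm10 with GENCODE M21 positions, Kif18b (ENSMUSG00000051378) spans 102905529 to 102925124 on chromosome 11 and Kif23 (ENSMUSG00000032254) spans 61915905 to 61946774 on chromosome 9. Kif11 (ENSMUSG00000012443) spans 37376403 to 37421859 on chromosome 19 and Kif22 (ENSMUSG00000030677) spans 127027729 to 127042471 on chromosome 7. Counts are per gene.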

How the data were processed

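Whole counts per gene for 16 libraries were deposited by the authors in a single table. Dividing each deposited count by a library's own factor gives the table's normalized signal, and the authors also give its mean. Their deposited comparison consists of log2 fold changes with standard errors, Wald scores and p-values. Tools named in the submitters' processing notes, without roles, are FastQC (0.72), STAR (2.6.0b-1), featureCounts (1.6.2) and DESeq2 (2.11.40.2), with the build mm10. The sources used here do not give the annotation. Per the labels' protocols, 750 pg of total RNA went into cDNA amplified over 12 cycles. The kit does not mark molecules, so floors cover counting error only.

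Genes passing filterByExpr (12496) were scaled with TMM and fitted in edgeR 4.0.16 (R 4.3.3; robust glmQLFit, two-sided glmQLFTest). Adjusted p-values are Benjamini-Hochberg values over all of them, judged at 0.05, from edgeR, or from DESeq2 1.42.0 or limma 3.58.1 where named. CPM uses unscaled library totals, and lengths are unions of GENCODE M21 exons. On simulated data the fit found 28.4% of planted 1.5-fold changes, 70.1% of 2-fold and 90.9% of 4-fold changes, and 3.82% of its calls were false. Changes of 1.5-fold or less can therefore be missed. Libraries of a group all differed beyond sampling noise (lowest chi-square per gene 14.7). Alternatives covered scaling, filters, tools, lanes, class boundaries, a replicate block and each library left out. Every member is named. Changed members and the 6 highest transport motors are given with full statistics, others by range, and up to 4 called genes with the lowest p per partner list. The members, classes and lists were chosen with earlier results of these data known. One microglial marker and the marker sum that contains it are not reported here.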

Additional observations from a re-analysis of the deposited data

Results flagged for a closer look

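In 60 groups of 8 libraries (30 expressed kinesin genes, 2 groups each), a single library stood far from the rest in 6, and chance gives about 1 in 20. Kif21a was at 6.30 CPM in OIR replicate 1 with the next OIR library at 0.523, and at 3.50 CPM in nonOIR replicate 3 with the next at 1.43. Kif1b was at 73.0 CPM in OIR replicate 3 (next 51.9) and Kif5b at 81.9 CPM in nonOIR replicate 4 (next 66.4). The neuronal motor Kif5a was at 1.21 CPM in OIR replicate 4 (next 0.233), and Kif4 at 0.357 CPM in nonOIR replicate 5 (next 0.133), which was 10 counts.

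The effect of OIR on Kif22 differed between the lanes by 4.78 on the log2 scale (edgeR interaction adjusted p = 0.0449), in a test added after the values were seen. Over both lanes 7 of 8 OIR libraries lay above all nonOIR libraries.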

How the results depend on the processing

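The count of mitotic motors that rose, 7 of 9, moved to 0 within lane 1 and to 3 within lane 1 without OIR replicate 1. It was 5 with limma-voom, 7 within lane 2 and with lane as a covariate, and 7 with the other scalings, the stricter filter and DESeq2. With no filter it was 7 of 11, with Kif4 gained and Kif11 lost (edgeR adjusted p = 0.0774). It lay between 5 and 7 when single libraries were left out. Counting Kif2a as mitotic, or Kif21a and Kif21b as transport motors, added no call. Transport and other motors had 0 calls under every alternative run. Over all genes, 798 higher and 570 lower became 281 and 142 within lane 1, 314 and 173 within lane 1 without OIR replicate 1, and 1210 and 949 with lane as a covariate. Within lane 2, 1218 were higher. The lower count was 364 with library size alone, which put 73.7% of calls higher against 58.3%, and 343 with no filter. Leaving out single libraries gave 581 to 902 higher and 358 to 653 lower, the latter minimum without OIR replicate 6. With the replicate number as a block 5 mitotic motors rose, with Kif11 and Kif22 lost (edgeR adjusted p = 0.0969 and 0.0522). The labels do not say that numbers pair libraries. Same-numbered libraries correlated over 0.1 in 2 of 8 pairs, and 2 of 8 correlated best with their own number. Kif20b passed within lane 2 (edgeR adjusted p = 0.0495). No called member changed direction under these alternatives.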
